A study of Homo sapiens with 12 samples.

Results

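The MHC antigen presentation genes of L-540, an established Hodgkin lymphoma cell line, were followed through treatment with givinostat, sorafenib or both. A list of 33 genes was matched to array probes by the gene symbol of the platform annotation, and 32 of them had a named probe (51 probes in all). A gene was tested if 1 of its probes was detected (p under 0.05) on every array of some group. This held for 30 of the 33, and for 8079 genes in the whole series. The probe named for HLA-DRB1 was detected on 0 of 12 arrays, that of CTSS was detected on 1 of 12, and HLA-DQA1 had no named probe here. Of the 30 tested genes, 27 were detected on all 12 arrays. HLA-G, TAPBPL and CIITA passed through the groups in which they were detected: on 1, 2 and 1 of the 3 control arrays and on all 3 sorafenib arrays.

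The 4 groups, 3 arrays each, were all L-540 cells read after 24 hours. The control received neither drug, the second group 100 nM givinostat (a histone deacetylase inhibitor), the third 5 µM sorafenib (a multikinase inhibitor), and the fourth both drugs at these doses, called the combination here. All cells belong to 1 line and were grown in serum-containing medium with no other cells named. Samples of a group carry the letters A, B and C, and nothing says that these are separate cultures, so the spread behind each p-value is that of these 3 samples and may be technical.

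MHC class I molecules carry peptides cut by the proteasome in the cytosol. The TAP transporter moves these peptides into the endoplasmic reticulum, where tapasin helps load them onto a heavy chain paired with beta-2 microglobulin. MHC class II molecules carry peptides from endosomes. The invariant chain, CD74, fills their groove until HLA-DM exchanges its remnant for a peptide, and HLA-DO restrains HLA-DM. Class II genes share a promoter module of X and Y boxes, bound by the RFX complex and by NF-Y, on which the coactivator CIITA assembles. NLRC5 plays the matching part at class I genes.

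The upstream sequences of the 3 class II genes that passed the test in any comparison are shown because the X and Y boxes lie in them. Each is the 250 bases before the annotated start, from RefSeq (GRCh38.p14), read 5′ to 3′ on the gene's own strand. Capitals mark each match to AGNAAC, the core searched for as the X box, or to ATTGG, the core searched for as the Y box, on either strand. The windows are chr5:150412911-150413160 (minus strand) for CD74, chr6:33009592-33009841 (minus strand) for HLA-DOA and chr6:32941029-32941278 (minus strand) for HLA-DMB.
CD74: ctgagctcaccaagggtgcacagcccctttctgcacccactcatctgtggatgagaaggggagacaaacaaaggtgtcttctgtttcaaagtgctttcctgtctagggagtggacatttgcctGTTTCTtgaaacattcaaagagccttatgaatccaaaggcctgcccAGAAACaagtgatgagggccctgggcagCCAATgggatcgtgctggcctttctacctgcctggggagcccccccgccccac
HLA-DOA: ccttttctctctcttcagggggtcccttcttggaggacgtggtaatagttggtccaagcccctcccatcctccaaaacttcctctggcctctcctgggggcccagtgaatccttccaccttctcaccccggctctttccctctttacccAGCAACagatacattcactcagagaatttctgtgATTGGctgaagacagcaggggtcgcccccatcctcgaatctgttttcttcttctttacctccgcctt
HLA-DMB: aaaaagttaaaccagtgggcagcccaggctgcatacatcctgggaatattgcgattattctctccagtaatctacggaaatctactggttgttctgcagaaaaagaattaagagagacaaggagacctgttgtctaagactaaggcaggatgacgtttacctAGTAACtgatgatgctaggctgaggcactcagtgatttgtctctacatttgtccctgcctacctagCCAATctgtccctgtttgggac

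In HLA-DOA the X core began at -101, counted back from the start, and a Y core at -67, a distance of 34 bases. In CD74 the X core at -81 was followed by a Y core at -53, 28 bases on. HLA-DMB held 1 X core at -88 and 1 Y core at -22, farther apart than the 15 to 45 bases searched for. Of the 28 listed genes with an upstream sequence in the table, 4 held an X core with a Y core 15 to 45 bases downstream of it, and all 4 were among the 10 class II genes with a sequence: CD74, HLA-DOA, HLA-DRB1 and HLA-DQA1. Over 35116 windows of the same length, 36.7% held an X core, 32% a Y core, 12.5% both and 2.32% a pair at that distance. These shares count single windows, whereas a listed gene counted if the window of any of its annotated starts matched. The distance rule was widened to a Y core on either strand after the sequences were seen. A match is only a run of letters, and a missing match says nothing about the factors. HLA-DRA, HLA-E, CIITA, NLRC5 and CTSS had no entry.

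**Figure D1:**
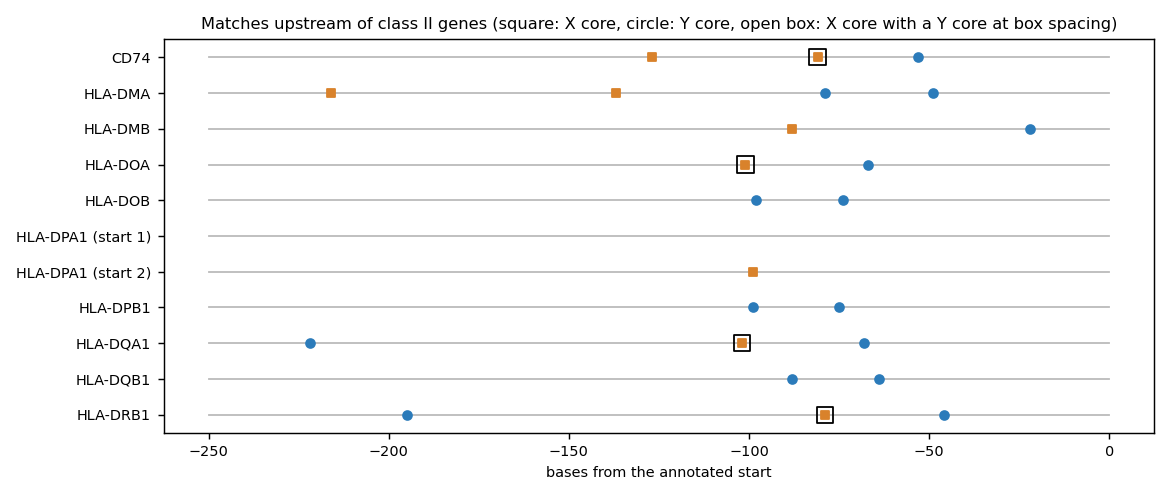
Positions of X core (square) and Y core (circle) matches in the 250 bases before each annotated start, for the 10 class II genes with a sequence. Open boxes mark an X core with a Y core 15 to 45 bases downstream, found in CD74, HLA-DOA, HLA-DQA1 and HLA-DRB1.

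The median raw intensity was 418.1 to 579.3 on 11 arrays and 681.1 on combination B, which also detected 22.4% of probes against 24.6% to 30.9% on the others. Of 6 Hodgkin markers, 4 were detected on all 12 arrays, CD30 (TNFRSF8) among them, and CCL17 on at most 1. Of 5 B cell markers with a probe, 0 were detected on all 12 arrays and CD79B, PAX5 and POU2AF1 on at most 1. Of 6 T cell markers, CD2 was detected on all 12 arrays and CD3D, CD3E, CD3G and CD5 on at most 1. Of 6 monocyte and dendritic cell markers, CSF1R and ITGAX were detected on all 12 arrays and CD14, LYZ and FCER1G on at most 1. No B cell marker could be tested. The 1 tested T cell marker and the 3 tested monocyte and dendritic cell markers did not pass in any comparison. Of the 5 tested Hodgkin markers, 2 passed in at least 1 comparison, CD30 among them. With sorafenib, CSF1R stood 0.42 ± 0.18 above control (adjusted p = 0.228), the T cell marker CD2 0.53 ± 0.20 above it (adjusted p = 0.173) and CD30 fell by 0.98 on the log2 scale (SE 0.20, adjusted p = 0.0316). Their part in the results on the MHC genes was not tested.

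Values below are log2 normalized intensities per array in the order A, B, C. Changes are differences of group means on that scale ± SE from limma (3 arrays per group), tested by limma with Benjamini-Hochberg adjustment of p over all 8079 genes. A gene passed at an adjusted p under 0.05. A probe's intensity cannot be set against another probe's. Genes of the HLA family are closely alike and polymorphic, so a probe named for 1 of them may also read others or miss an allele, which was not tested. In RNA from many cells, fewer expressing cells and less RNA per cell cannot be told apart.

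The comparison of sorafenib with control shows what the kinase inhibitor alone did to these genes. HLA-DOA, HLA-DMB and CD74 rose and none fell: 3 of the 30 tested genes (10%) passed, against 3.38% of all 8079 genes. All 3 belong to the class II pathway, 2 as parts of the peptide exchange machinery and 1 as the invariant chain. The other 27 did not pass, 0 of 6 class I chains, 0 of 9 supply and loading genes and 0 of 5 regulators among them.

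HLA-DOA encodes the alpha chain of HLA-DO. Its log2 intensity was 9.62, 9.43 and 9.53 in control, 9.56, 9.75 and 9.72 with givinostat, 11.03, 10.57 and 10.47 with sorafenib, and 10.27, 10.29 and 10.00 with the combination. All sorafenib arrays lay above all combination arrays, and these above all control and givinostat arrays. The control mean was 9.53 ± 0.10 (SD, n = 3) and the sorafenib mean 10.69 ± 0.30 (SD, n = 3). HLA-DOA rose by 1.17 ± 0.16 with sorafenib, 2.24-fold (adjusted p = 0.00488, 95% interval 0.82 to 1.52).

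HLA-DMB encodes the beta chain of HLA-DM. It read 11.56, 11.71 and 11.81 in control, 11.51, 12.07 and 11.85 with givinostat, 12.55, 12.30 and 12.50 with sorafenib, and 12.12, 12.14 and 12.06 with the combination. The sorafenib arrays again stood above all others, while givinostat overlapped control. HLA-DMB rose by 0.76 ± 0.15 with sorafenib, 1.69-fold (adjusted p = 0.0292). Its partner HLA-DMA read 13.57, 13.81 and 13.84 in control and 13.93, 14.03 and 14.13 with sorafenib, which did not overlap, but its change of 0.29 ± 0.19 did not pass (adjusted p = 0.437).

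CD74 read 14.36, 14.19 and 14.35 in control, 14.44, 14.45 and 14.45 with givinostat, 14.83, 14.95 and 15.13 with sorafenib, and 14.63, 14.38 and 14.98 with the combination. The sorafenib and control arrays did not overlap, and combination C lay among the sorafenib arrays. CD74 rose by 0.67 ± 0.15 with sorafenib, 1.59-fold (adjusted p = 0.0447). When every kept probe was tested on its own, its 3 probes changed by 0.67 (adjusted p = 0.0538), 0.53 (adjusted p = 0.0731) and 0.37 (adjusted p = 0.435), so the 3 shared a direction and none passed.

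**Figure D2:**
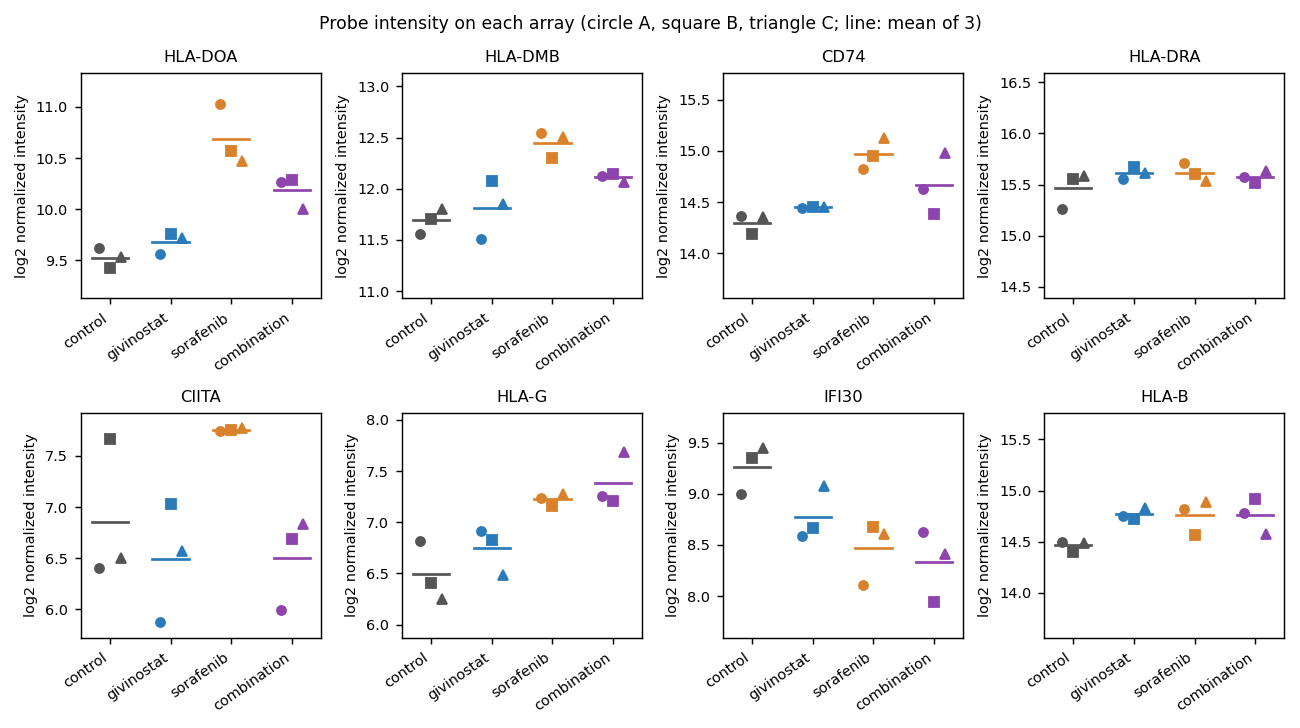
Log2 normalized intensity of the tested probe of 8 genes on each of the 12 arrays, with circles for A, squares for B, triangles for C and lines at the mean of 3. Sorafenib arrays of HLA-DOA (10.47 to 11.03) lie above the control arrays (9.43 to 9.62), whereas HLA-DRA groups overlap. Each panel has its own vertical position, and the axes do not start at 0.

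The classical class II chains had no call with sorafenib. HLA-DQB1, a beta chain of HLA-DQ, read 8.81, 8.78 and 8.20 in control and 9.16, 9.43 and 9.68 with sorafenib. The groups did not overlap, and the change of 0.83 ± 0.24 did not pass (adjusted p = 0.0926). HLA-DRA, the alpha chain of HLA-DR, read 15.27, 15.55 and 15.58 in control and 15.71, 15.60 and 15.54 with sorafenib, a change of 0.15 ± 0.12 (adjusted p = 0.536). Those arrays overlapped. Its raw intensity was 57.4% to 81.5% of the brightest value on the same array. A second, dimmer HLA-DRA probe differed by 0.56 ± 0.24 (adjusted p = 0.252) with no overlap, so the probes of this gene did not give the same size of change. HLA-DPA1 (0.11 ± 0.14) and HLA-DPB1 (0.44 ± 0.23) overlapped control. So did HLA-DOB (0.24 ± 0.28), which is not a classical chain but the partner of HLA-DOA in HLA-DO, and it did not pass. All 9 tested class II genes had a positive difference, with a median of 0.44, against 50% of all genes with a positive difference and a median of 0.00.

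**Figure D3:**
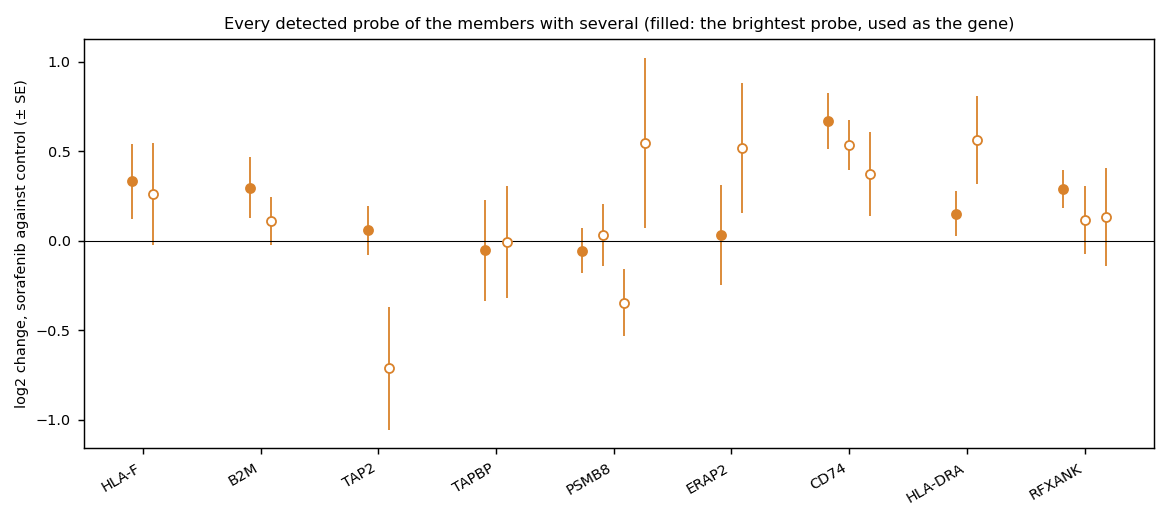
Log2 change with sorafenib against control (± SE, 3 arrays per group) for each detected probe of the genes with several, with the brightest probe filled. The 3 CD74 probes lie at 0.67, 0.53 and 0.37, and the TAP2 probes on opposite sides of 0.

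The regulators had positive differences in 4 of 5 cases, against 50% of all genes, and none passed. CIITA, among these 4, passed the filter through groups in which it was detected, sorafenib included, which favours a positive difference. CIITA read 6.40, 7.66 and 6.50 in control, 5.87, 7.03 and 6.57 with givinostat, 7.74, 7.75 and 7.78 with sorafenib, and 6.00, 6.69 and 6.84 with the combination. The sorafenib arrays differed by little among themselves and lay just above control B and well above control A and C. The change was 0.90 ± 0.37 (adjusted p = 0.205), and its interval of 0.10 to 1.70 was wide. RFX5, the DNA-binding subunit of the RFX complex, read 12.32, 12.52 and 12.49 in control and 13.03, 12.99 and 12.66 with sorafenib, without overlap (0.45 ± 0.17, adjusted p = 0.18). RFXANK, another RFX subunit, read 11.73, 11.76 and 11.83 in control and 12.07, 12.09 and 12.02 with sorafenib, also without overlap (0.29 ± 0.10, adjusted p = 0.14). RFXAP, the third subunit, differed by -0.13 ± 0.17 (adjusted p = 0.745), and NLRC5 by 0.31 ± 0.18 (adjusted p = 0.375).

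The class I chains had 6 positive differences of 6, against 50% of all genes, with a median of 0.31, and none passed. HLA-G is among these 6 and passed the filter through groups in which it was detected, sorafenib included, which favours a positive difference. HLA-G, a non-classical class I chain read by inhibitory receptors of natural killer cells, read 6.82, 6.41 and 6.25 in control, 6.92, 6.83 and 6.49 with givinostat, 7.24, 7.15 and 7.28 with sorafenib, and 7.25, 7.21 and 7.69 with the combination. Control and givinostat arrays were low, and the 6 arrays with sorafenib in them were all higher. Sorafenib against control gave 0.73 ± 0.19 (adjusted p = 0.0604). HLA-B, a classical class I heavy chain, read 14.50, 14.40 and 14.49 in control, 14.75, 14.72 and 14.83 with givinostat, 14.82, 14.57 and 14.89 with sorafenib and 14.78, 14.92 and 14.58 with the combination. All 9 treated arrays lay above the 3 control arrays by a small amount, and the change with sorafenib was 0.29 ± 0.13 (adjusted p = 0.234). HLA-C differed by 0.65 ± 0.27 (adjusted p = 0.214), B2M, the light chain, by 0.30 ± 0.17, HLA-E by 0.23 ± 0.19 and HLA-F by 0.33 ± 0.21, all with overlapping arrays.

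Among the genes that supply and load class I peptides, 7 of 9 differences were positive, against 50% of all genes, with a median of 0.15. TAPBPL is among these 7 and passed the filter through groups in which it was detected, sorafenib included, which favours a positive difference. PSMB8, a catalytic subunit of the immunoproteasome, read 14.04, 14.13 and 14.17 in control and 14.19, 13.96 and 14.02 with sorafenib (-0.06 ± 0.12, adjusted p = 0.85). TAP1, a subunit of the peptide transporter, read 14.38, 13.83 and 13.83 in control, 14.16, 13.46 and 13.63 with givinostat, 14.81, 14.04 and 14.18 with sorafenib, and 14.37, 13.67 and 13.79 with the combination. The A array was the highest of each group, and sorafenib against control gave 0.33 ± 0.27 (adjusted p = 0.556). TAPBPL, a relative of tapasin that edits class I peptides, read 6.88, 7.43 and 6.75 in control and 8.05, 8.06 and 7.68 with sorafenib, without overlap (0.91 ± 0.40, adjusted p = 0.234). The changes of TAP2 (0.06 ± 0.13), TAPBP, which is tapasin (-0.05 ± 0.28), PSMB9 (0.26 ± 0.20), PSMB10 (0.15 ± 0.11), ERAP1 (0.31 ± 0.22) and ERAP2 (0.03 ± 0.28), the last pair being peptide-trimming aminopeptidases, came with overlapping arrays. IFI30, a thiol reductase of the endosome that unfolds proteins for class II loading, went the other way, from 8.99, 9.35 and 9.44 in control to 8.11, 8.67 and 8.61 with sorafenib (-0.80 ± 0.22, adjusted p = 0.0797).

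Over all 30 tested genes, 26 had a positive difference with sorafenib, with a median of 0.30, against a median of 0.00 over all genes. Of the 27 detected on every array, 23 were positive and 3 passed (11.1%), with a median of 0.29. Of the 6506 genes of the series detected on every array, 3275 were positive and 3.77% passed. The arrays of 12 genes lay wholly above control and those of 1 wholly below, against 13.3% and 12.3% of all genes. At an unadjusted p under 0.05, 11 were higher and 1 lower, against 10.8% and 9.07% of all genes. Among the 27 detected on every array, 9 lay wholly above control and 1 wholly below, and 8 were higher and 1 lower at that p. Among the 6506 such genes of the series, 924 lay wholly above and 852 wholly below, and 752 were higher and 633 lower. With the letter as a replicate block and the combination arrays left out, 6 genes passed: HLA-DOA, HLA-DMB, CD74, HLA-G (adjusted p = 0.0309) and TAPBPL (adjusted p = 0.0341) higher, and IFI30 lower (adjusted p = 0.0185). In that fit 8.84% of all genes passed, and HLA-G and TAPBPL are among the genes not detected on every array. Only HLA-DOA passed when control B, control C, sorafenib A or sorafenib C was left out. HLA-DMB also missed the threshold without control A, and CD74 kept its call only without combination B or combination C.

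**Figure D4:**
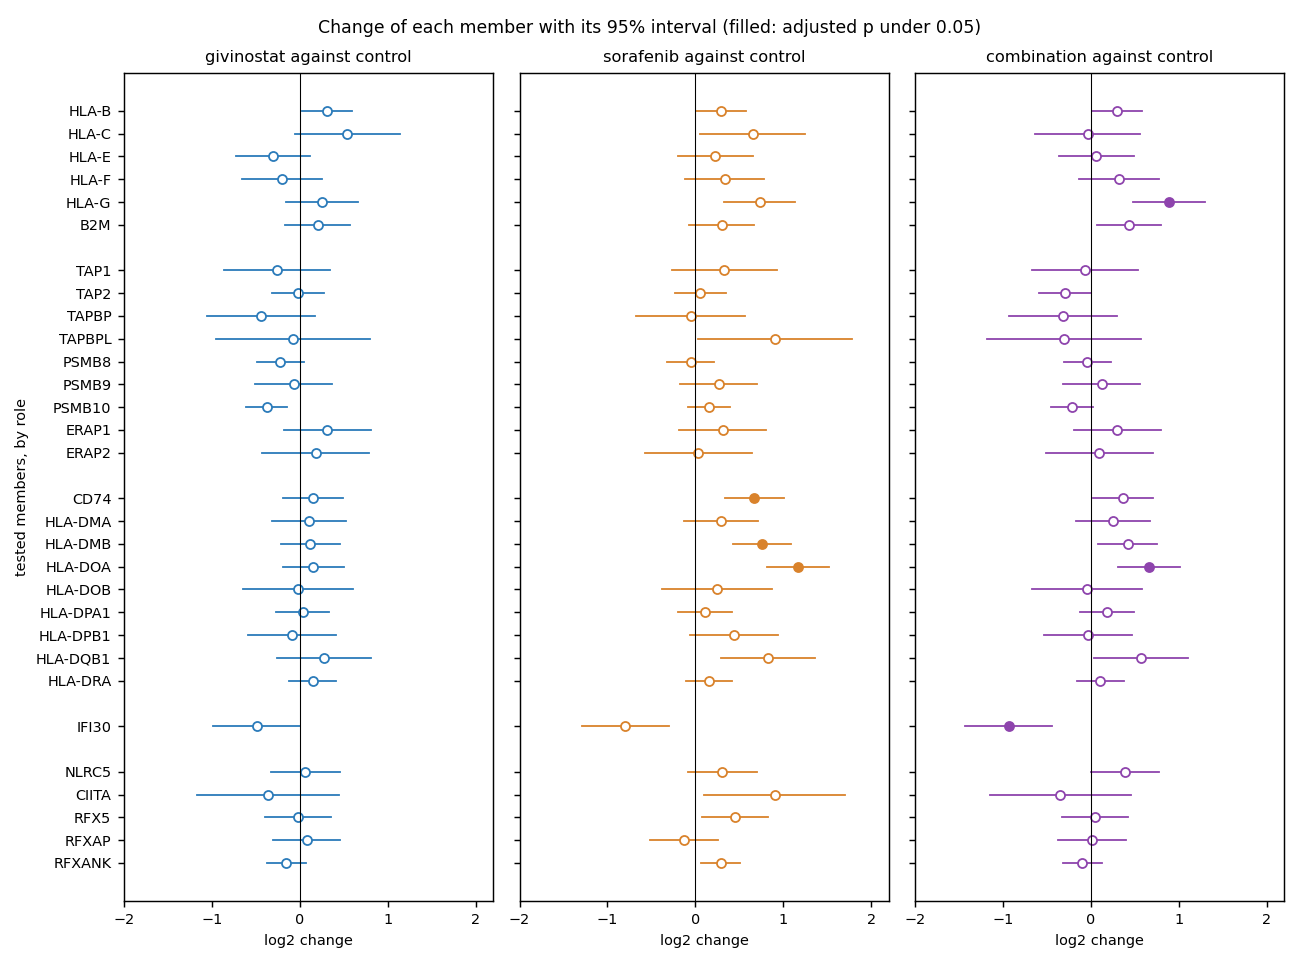
Log2 change of the 30 tested genes with givinostat, sorafenib or the combination against control, with 95% intervals and 3 arrays per group, ordered by role. Filled points passed at an adjusted p under 0.05: HLA-DOA, HLA-DMB and CD74 with sorafenib, and HLA-DOA, HLA-G and IFI30 with the combination. The 3 panels share the control arrays.

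Givinostat alone was set against control to ask what the deacetylase inhibitor did. None of the 30 genes passed limma's test, against 0.0866% of all genes. At an unadjusted p under 0.05, 1 was higher (HLA-B, 0.30 ± 0.13, adjusted p = 0.348) and 1 lower, against 12.9% of all genes. The lower one was PSMB10, an immunoproteasome subunit. It read 12.92, 12.87 and 12.82 in control, 12.51, 12.56 and 12.41 with givinostat, 13.06, 12.92 and 13.10 with sorafenib, and 12.74, 12.64 and 12.60 with the combination. The 6 arrays with givinostat lay below the 6 without it, and the change with givinostat alone was -0.38 ± 0.11 (adjusted p = 0.194). The differences were positive for 15 genes and negative for 15, with a median of 0.00. For HLA-DOA the change was 0.15 with an interval of -0.20 to 0.50, for HLA-DMB 0.12 (-0.21 to 0.45) and for CD74 0.15 (-0.19 to 0.49).

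The combination against control shows the effect of both drugs given together. HLA-DOA and HLA-G rose, IFI30 fell, and 27 genes did not pass: 3 of 30 (10%), against 6.99% of all genes. Of the 27 detected on every array, which leaves out HLA-G, 2 passed (7.41%), against 7.49% of all such genes. HLA-DOA rose by 0.66 ± 0.16, 1.58-fold (adjusted p = 0.0334). HLA-G rose by 0.89 ± 0.19 (adjusted p = 0.0207). It was detected on 1 of 3 control arrays, and the rise is 1.51-fold with the undetected control arrays set to the detection limit. IFI30 read 8.63, 7.94 and 8.41 with the combination, all below the control arrays, and fell by 0.93 on the log2 scale (SE 0.22), 1.91-fold lower (adjusted p = 0.0333). Its givinostat arrays, at 8.59, 8.66 and 9.08, overlapped both groups. The sizes of these changes depend on the background step: without background correction HLA-DOA differed by 0.44, HLA-G by 0.24 (adjusted p = 0.0966) and IFI30 by -0.45.

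No other class II gene passed with the combination. HLA-DMB differed by 0.42 ± 0.15 (adjusted p = 0.12) and CD74 by 0.36 ± 0.15 (adjusted p = 0.178), both with arrays wholly above control, and HLA-DQB1 by 0.57 ± 0.24 (adjusted p = 0.183). B2M read 13.58, 13.85 and 13.47 in control and 14.14, 14.15 and 13.90 with the combination (0.43 ± 0.17, adjusted p = 0.143). With the letter as a replicate block it passed limma's test (adjusted p = 0.0432). In that fit 4 of the 30 genes passed, against 13.2% of all genes. Of the combination arrays, only A varied with its letter in the other groups as those groups did among themselves. The arrays of 6 genes lay wholly above control and those of 3 wholly below, against 14.6% and 14.2% of all genes. At an unadjusted p under 0.05, 7 were higher and 2 lower, against 12.2% and 11.8%. Among the 27 detected on every array, 5 lay wholly above control and 3 wholly below, and 6 were higher and 2 lower at that p. Among the 6506 such genes of the series, 1078 lay wholly above and 966 wholly below, and 868 were higher and 747 lower. The difference was positive for 18 of the 30, against 47% of all genes, with a median of 0.08. Without combination B only HLA-G passed. HLA-DOA was then 0.61 (adjusted p = 0.0988) and IFI30 -0.74 (adjusted p = 0.101). None passed without control B or control C, and only HLA-DOA without combination C. HLA-DOA also missed the threshold without control A or combination A.

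**Figure D5:**
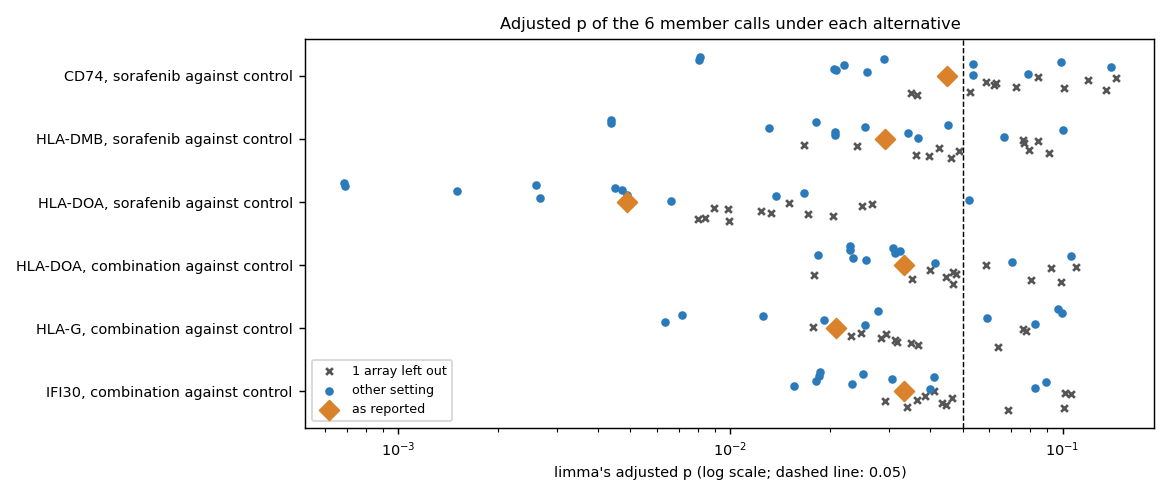
Limma's adjusted p (log axis) of the 6 calls as reported (diamond), with 1 array left out (cross) and under the other settings (dot), with the dashed line at 0.05. HLA-DOA with sorafenib crosses the line in 1 of its 24 alternatives, and CD74 in 15 of 24.

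The combination was also set against each single drug. Against givinostat, 0 of 30 genes passed limma's test, against 1.68% of all genes. At an unadjusted p under 0.05, 3 were higher (HLA-DOA, HLA-G and HLA-F) and 0 lower, against 9.7% and 10.2% of all genes. Among the 27 detected on every array, which leave out HLA-G, 2 were higher and 0 lower, against 701 and 629 of 6506 such genes. HLA-G differed by 0.64 ± 0.19 (adjusted p = 0.1), HLA-DOA by 0.51 ± 0.16 (adjusted p = 0.12) and HLA-F by 0.52 ± 0.21 (adjusted p = 0.199).

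Against sorafenib, 0 of 30 genes passed, against 0.359% of all genes. At an unadjusted p under 0.05, 0 were higher and 9 lower, against 7.29% and 8.29% of all genes. Of the 30 differences 8 were positive and 22 negative, with a median of -0.21, against 46.9% positive over all genes. The 27 genes detected on every array, which leave out CIITA, TAPBPL and HLA-G, had 7 lower at that p, 20 negative differences and a median of -0.16. Of the 6506 such genes in the series, 471 were lower at that p and 3332 were negative, with a median of -0.01. CIITA differed by -1.25 ± 0.37 (adjusted p = 0.156), and its combination arrays lay below all sorafenib arrays. RFXANK read 12.07, 12.09 and 12.02 with sorafenib and 11.73, 11.59 and 11.71 with the combination, without overlap (-0.39 ± 0.10, adjusted p = 0.121). HLA-DOA differed by -0.50 ± 0.16 (adjusted p = 0.18), HLA-DMB by -0.34 ± 0.15 (adjusted p = 0.309) and PSMB10 by -0.37 ± 0.11 (adjusted p = 0.158), each without overlap. TAPBPL read 6.76, 5.68 and 7.69 with the combination, where combination C overlapped the sorafenib arrays and combination B was lowest (-1.22 ± 0.40, adjusted p = 0.191).

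The interaction, the combination minus both single drugs plus control, tested whether the joint effect differed from the sum of the single effects on the log2 scale. None of the 30 genes passed, against 0% of all genes. At an unadjusted p under 0.05, 0 were higher and 2 lower, against 5.85% of all genes. These were HLA-C (-1.23 ± 0.38, adjusted p = 0.758) and HLA-DOA (-0.66 ± 0.23, adjusted p = 0.758, interval -1.15 to -0.16). HLA-C read 7.74, 8.13 and 7.39 in control, 8.49, 8.50 and 7.88 with givinostat, 8.06, 8.43 and 8.71 with sorafenib, and 7.85, 7.26 and 8.03 with the combination. The means with each single drug were the highest, and the combination arrays overlapped control.

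A further 50 genes around the pathway were followed, of which 32 were tested: endoplasmic reticulum chaperones and proteasome activators, interferon signalling, NF-Y and CREB factors, other endosomal proteases, and other antigen-presenting and costimulatory molecules. Only 1 passed in any of the 6 comparisons. CALR, the chaperone calreticulin that holds class I chains before loading, read 9.98, 10.17 and 10.48 with givinostat and 9.32, 9.34 and 9.63 with the combination. It fell by 0.78 on the log2 scale (SE 0.16) in the combination against givinostat, 1.72-fold lower (adjusted p = 0.0388), with no overlap. That was 1 of 32 (3.12%), against 1.68% of all genes in that comparison. Against control, CALR passed with neither single drug nor the combination. The CALR call was not followed through the alternatives. With sorafenib against control 0 of 32 passed limma's test, and at an unadjusted p under 0.05, 5 were higher and 3 lower, against 3.38% of all genes past the test and 10.8% and 9.07% at the unadjusted p.

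IRF1, an interferon-induced factor that acts on MHC class I promoters, read 11.35, 10.80 and 11.05 in control, 11.06, 10.59 and 10.83 with givinostat, 11.98, 11.66 and 12.03 with sorafenib, and 11.99, 11.41 and 11.39 with the combination. The arrays with sorafenib were all above the arrays without it, and sorafenib against control gave 0.82 ± 0.21 (adjusted p = 0.0579). The probe named for HLA-DRB4, a further HLA-DR beta chain, read 13.81, 13.79 and 13.90 in control, 14.27, 14.15 and 14.64 with sorafenib and 14.23, 14.22 and 14.57 with the combination, both wholly above control. Its changes were 0.52 ± 0.15 (adjusted p = 0.0953) and 0.51 ± 0.15 (adjusted p = 0.0729). CD86, a costimulatory ligand, differed by 0.52 ± 0.17 with the combination (adjusted p = 0.0905). The 7 tested chaperones and proteasome activators all had negative differences with the combination against control, with a median of -0.33. At an unadjusted p under 0.05, 3 of them were lower and 0 higher, against 11.8% and 12.2% of all genes. Their lowest adjusted p from limma was 0.0591. With sorafenib, 2 were lower and 0 higher at that unadjusted p, against 9.07% and 10.8%. Over all 32, 14 differences with the combination were positive and 18 negative.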

How the data were processed

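RNA of 12 L-540 samples was read on Illumina bead arrays. Per the labels' protocols, total RNA was taken with Trizol and a clean-up column and turned into biotinylated cRNA. Per the submitters' processing notes, BeadStudio was used. The deposited table holds an average bead intensity per probe on a linear scale, and its array totals differ, as in values not yet normalized. The deposited detection column is a fraction from 0 to 1 that rose with intensity on every array, and its complement was taken as the detection p. In the deposited series matrix the intensity columns rank probes as the raw ones do and differ by at most 0.275% at equal rank, as quantile normalization leaves them. It served as an alternative.

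Here the raw values were corrected and quantile normalized with neqc (limma 3.58.1, R 4.3.3, offset 16), and log2 values were tested. Of 48803 probes, 11801 passed the detection filter and 10052 of these had 1 symbol. The brightest probe per symbol gave 8079 genes. Over the whole annotation, 28098 probes had 1 symbol, 13 several and 20692 none listed, and 32 of the 33 genes matched RefSeq by Entrez ID. Each gene was fitted with lmFit and eBayes over all 12 arrays (8 residual degrees of freedom), in 6 comparisons. The arrays' number limits the precision. The scripts were tested on simulated data.

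The genes and lists were chosen with earlier results of these data known. All listed genes are accounted for, with full values for those past the threshold, for the brightest probe of each role and for others near the threshold or without overlap, the last chosen after their values were seen. Accessory genes below the threshold were also chosen that way.

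Same-letter arrays of control, givinostat and sorafenib deviated from their group means together (9 correlations of 0.177 to 0.408 across genes), so the letters may pair them, though the labels state no pairing. The reported fit has no block, and the fits with the letter as a replicate block are alternatives. The 9 correlations with combination arrays ran from -0.139 to 0.363. With control, givinostat and sorafenib in turn, combination A gave 0.310, 0.363 and 0.321, inside the range of the other groups. Combination B gave -0.138, -0.139 and -0.107, and combination C -0.0848, 0.0267 and 0.135, all below that range.

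Alternatives covered background, normalization, filter, probe, block, weights, fitted arrays and each array left out.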

Additional observations from a re-analysis of the deposited data

How the results depend on the processing

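The counts of genes past the threshold depended on the settings. With sorafenib against control, 3 passed as reported, 1 with no filter on probes, 6 with the replicate block and the combination arrays left out, 5 with array weights, 0 with only the arrays of the groups compared, and 1 to 3 with 1 array left out. The shares of all genes passing were, in the same order, 3.38%, 0.345%, 8.84%, 5.31%, 0.433% and 0.866% to 3.22%. With the letter as a replicate block over all 12 arrays 4 passed, against 8.74% of all genes. Likewise 4 passed with the combination against control, where B2M was added, against 13.2% of all genes. With the combination against control, 3 passed as reported, 0 with no filter on probes, 0 with only the arrays of the groups compared, and 0 to 3 with 1 array left out. Of all genes, 6.99%, 0.939%, 1.78% and 2.46% to 6.72% passed in the same order. With the combination against givinostat, 0 passed as reported and 1 with array median scaling (HLA-G), against 1.68% and 1.49% of all genes. Givinostat against control, the combination against sorafenib and the interaction gave 0 under every alternative run. Over all genes, the count with sorafenib ran from 35 to 714, with the combination against control from 144 to 1068, with givinostat from 0 to 166, with the combination against givinostat from 5 to 590 and against sorafenib from 0 to 175. HLA-DOA with sorafenib passed in 23 of 24 alternatives (adjusted p 0.000686 to 0.0521), HLA-DMB in 17 of 24 (0.00435 to 0.1) and CD74 in 9 of 24 (0.00806 to 0.145). With the combination, HLA-DOA passed in 16 of 23 (0.0178 to 0.109), HLA-G in 15 of 22 (0.00637 to 0.0993) and IFI30 in 17 of 23 (0.0156 to 0.106). None of these 6 changes reversed, but their sizes moved. Without background correction and on the series matrix values, the change with the combination was 0.44 and 0.44 for HLA-DOA, 0.24 and 0.23 for HLA-G, and -0.45 and -0.45 for IFI30. With sorafenib it was 0.82 and 0.82 for HLA-DOA. No filter on probes raised the number of genes tested to 18852, and the fit on the groups compared alone used fewer arrays. The causes of the other shifts were not tested. HLA-G had no value under the strict detection filter. The slide as a block was not run, because the column names give no slide. HLA-G, TAPBPL and CIITA lay near the detection limit, where signal over background limits their changes.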
